A study of Mus musculus with 27 samples.

Results

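The cells described here are neutrophils of mouse MC38 tumours, 695 of the 20299 single cells that passed the quality filter. MC38 is a mouse colon adenocarcinoma cell line that is grown as a tumour in mice. The KO group is Ogt-flox Lyz2-cre, in which cre is expressed from the lysozyme gene Lyz2 in myeloid cells, and the WT group is Ogt-flox without cre, so that the floxed Ogt allele is shared by both. Single-cell RNA-seq of CD45+ immune cells had 2 labelled samples but 1 matrix per genotype, and no barcode carries a sample number, so that every comparison below is between 1 KO matrix and 1 WT matrix and has no test. The 4 sample titles name CD45, while a second label field counts up from CD45 to CD48 over the same samples. Age, sex and day of harvest were not given in the sources used here.

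A barcode was kept with at least 1000 UMIs (unique molecular identifiers, 1 per captured RNA molecule), at least 500 genes and at most 10% mitochondrial UMIs, which left 10086 KO cells and 10213 WT cells. A neutrophil then had at least 20 UMIs of S100a8 plus S100a9 (the subunits of calprotectin), at least 1 of Csf3r (the G-CSF receptor), none of Csf1r (the macrophage growth factor receptor), at most 1 of Cd3d, Cd3e and Cd3g together and at most 1 of the NK genes Ncr1 and Klrb1c together. This gave 361 KO and 334 WT neutrophils. Neutrophils are short-lived granulocytes that leave the bone marrow with their granule proteins already made. In tumours they are known to secrete chemokines and interleukin 1, and tumour neutrophils can carry T cell inhibitory molecules such as PD-L1. Ogt encodes O-GlcNAc transferase, which attaches single N-acetylglucosamine sugars to nuclear and cytoplasmic proteins.

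The KO matrix held 85418469 UMIs and the WT matrix 85755359. The neutrophils held 1156598 UMIs in KO and 907604 in WT, with a median of 2667 UMIs and 912 genes per KO cell against 2356 UMIs and 869 genes per WT cell. Among the other cells, the median was 7431 UMIs in KO and 7296 in WT for cells with Csf1r, which hold macrophages and monocytes, and 6061 in KO and 5665 in WT for T cells. The matrices shared 25 barcodes among their cells and 0 among their neutrophils. Scrublet, a doublet caller, marked 319 KO cells (3.16%) and 501 WT cells (4.91%), of which 4 KO and 6 WT cells were neutrophils, and these were kept. Levels are given as CPM, the UMIs of a gene per 1000000 UMIs summed over the neutrophils (or other class) of a matrix. Xist, the RNA of the inactive X chromosome, stood at 214 CPM in KO and 206 CPM in WT neutrophils.

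Neutrophils made up 3.58% of KO cells (exact binomial 95% interval 3.23 to 3.96) and 3.27% of WT cells (2.93 to 3.63). The KO share was 1.09 times the WT share, with a 95% interval of 0.941 to 1.27, so that no difference was detectable at this depth. These and all other intervals cover counting error only, not the spread between mice. Under a stricter filter of 2000 UMIs, 1000 genes and 5% mitochondrial UMIs, the shares were 1.37% in KO and 0.957% in WT, a ratio of 1.43, with KO neutrophils the deeper ones; the part of depth in this ratio was not tested.

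The cells were chosen by their UMIs of S100a8, S100a9, Csf3r, Csf1r, CD3 and NK genes, and these values are given as a description. S100a8 and S100a9 together had 20 to 684 UMIs per KO neutrophil (median 106) and 20 to 826 per WT neutrophil (median 97.5), a median of 3.80% of a KO cell's UMIs and 4.17% of a WT cell's. Just outside the gate, 16 KO and 16 WT cells had 15 to 19 of these UMIs with all other conditions met, and just inside it 18 KO and 29 WT cells had 20 to 24. Cells that met all other conditions with no Csf3r UMI numbered 85 in KO and 66 in WT, against 102 KO and 76 WT neutrophils with exactly 1. Another 45 KO and 38 WT cells would have been neutrophils but for 1 Csf1r UMI; these had 1323 CPM of Cd74, the MHC class II invariant chain, in KO and 2944 CPM in WT, above the 655 CPM of KO and 500 CPM of WT neutrophils.

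Markers that the gate did not use fit the label. G0s2, a regulator of lipolysis and a neutrophil marker, stood at 5714 CPM in KO and 7647 CPM in WT neutrophils, and after each cell was thinned to 1000 UMIs it was found in 77.6% of KO and 83.2% of WT neutrophils, against 0.469% of KO and 1.17% of WT T cells. Retnlg, a resistin-like protein of mouse neutrophils, was found in 28.0% of KO and 36.8% of WT neutrophils thinned in this way, against 0.124% of KO and 0.0857% of WT T cells. In thinned Csf1r cells, G0s2 was found in 2.19% of KO and 6.26% of WT cells, and Retnlg in 0.0896% of KO and 0.173% of WT cells. Il1r2 was found in 76.2% of KO and 81.1% of WT thinned neutrophils, but also in 17.7% of KO and 25.7% of WT thinned Csf1r cells. Without thinning, G0s2 was found in 85.0% of KO and 87.4% of WT neutrophils and Retnlg in 42.7% of KO and 49.4% of WT. The granule genes made early in the bone marrow were nearly absent: Mpo, Elane, Prtn3, Ctsg and Ms4a3 summed to 3 UMIs in KO and 2 in WT over all neutrophils. Of the secondary granule genes, Lcn2 stood at 310 CPM in KO and 331 CPM in WT, while Camp and Ngp had at most 2 UMIs in either.

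**Figure D1:**
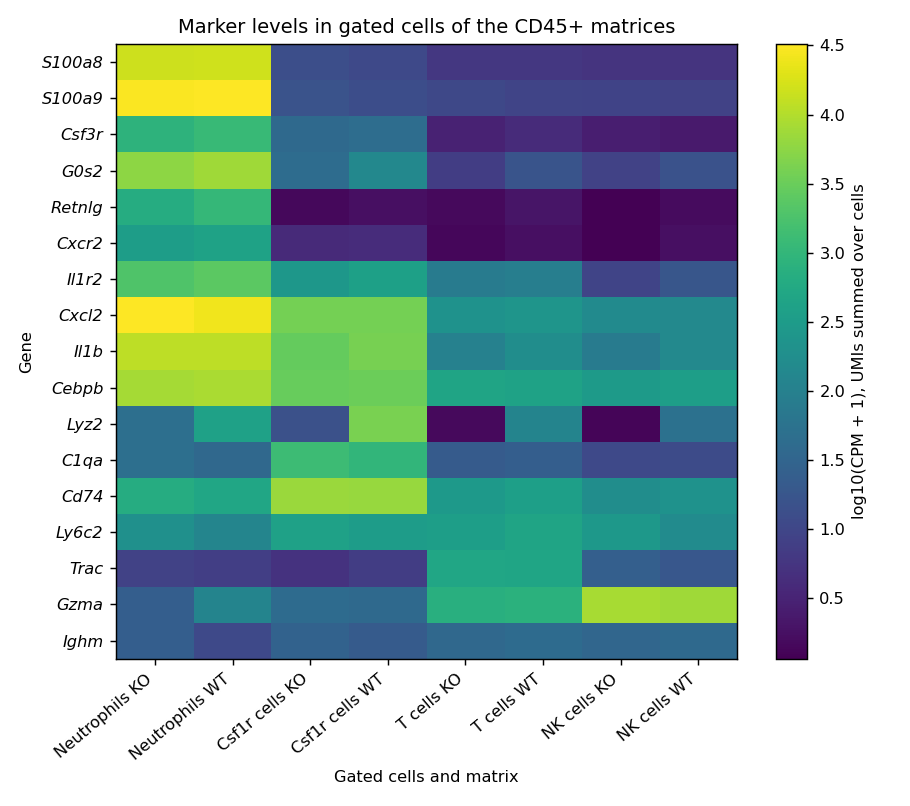
Level of 17 genes (rows) in neutrophils, Csf1r cells, T cells and NK cells of the KO and the WT matrix (columns), as log10 of CPM + 1 from UMIs summed over cells. S100a8, S100a9, Csf3r and the absence of Csf1r, CD3 and NK genes chose the cells, while G0s2, Retnlg, Cxcr2 and Il1r2 were not used and are high in the neutrophil columns of both genotypes, and Lyz2 is low in all KO columns.

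RNA of other cell types was present at low levels. The 10 macrophage markers summed to 370 CPM in KO and 335 CPM in WT neutrophils, against 6283 CPM in KO and 5577 CPM in WT Csf1r cells, and Csf1r was at 0 by the gate. The 6 monocyte markers summed to 952 CPM in KO and 673 CPM in WT. The 9 dendritic cell markers, which include MHC class II genes, summed to 1376 CPM in KO and 995 CPM in WT, with Fscn1 and Siglech at 0 in KO. The T cell markers summed to 54.5 CPM in KO and 73.8 CPM in WT, the NK markers to 37.2 CPM in KO and 153 CPM in WT, and the B cell markers to 25.1 CPM in KO and 19.8 CPM in WT. All 6 mast cell and basophil markers were at 0 in both, as were Prg2, Epx, Ear1 and Ear6 of the eosinophil list. The part of this RNA in the differences below was not tested directly. The lists were also counted without the 41 KO and 44 WT neutrophils that held 2 or more UMIs of macrophage, lymphocyte or NK genes. This choice was made after seeing the data. It used no monocyte or dendritic cell marker, so that cells with RNA of those types could remain.

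Ogt, the floxed gene (chromosome X, 101640011 to 101684351), had 59 UMIs in KO neutrophils and 107 in WT neutrophils, or 51.0 CPM in KO and 118 CPM in WT, a ratio of 0.433 (95% interval 0.309 to 0.6001). In cells thinned to 1000 UMIs, 4.71% of KO and 13.2% of WT neutrophils had an Ogt UMI, and 13.9% of KO and 23.4% of WT without thinning. The log2 ratio of Ogt, with 5 CPM added to both values as in all log2 ratios here, was -1.13 in neutrophils, -0.36 in Csf1r cells, -0.01 in T cells and -0.04 in NK cells. Which exons are floxed is not stated in the labels, so that UMIs from RNA that cannot make the enzyme may be counted. Oga, which removes the sugar again, stood at 99.4 CPM in KO and 118 CPM in WT.

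Lyz2 (chromosome 10, 117277541 to 117282272), the lysozyme gene from which cre is expressed, had 56 UMIs in KO and 368 in WT neutrophils, or 48.4 CPM in KO and 406 CPM in WT. A single WT cell held 30.7% of the WT UMIs. By cells, after thinning, 3.05% of KO and 19.2% of WT neutrophils had a Lyz2 UMI (11.9% of KO and 34.7% of WT without thinning), against 0.0494% of KO and 4.86% of WT T cells. In Csf1r cells Lyz2 was at 13.7 CPM in KO and 4188 CPM in WT. Because KO cells differ from WT cells by cre, by Lyz2 RNA and by Ogt, these cannot be told apart as sources of any difference that follows. Egr2, an early growth response factor that the study profiled in macrophages, was at 52.7 CPM in KO and 40.8 CPM in WT neutrophils (61 and 37 UMIs, ratio 1.29, 95% interval 0.846 to 2.002).

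Of 33696 genes in the files, 2351 were measured in neutrophils, with at least 100 UMIs over both sums and at least 20 CPM in 1 of them. Of these, 181 (7.7%) were at least 1.5-fold higher in KO and 163 (6.93%) at least 1.5-fold lower, and the median log2 ratio was -0.07. With the median gene set to 0, the counts were 219 higher and 115 lower. The same threshold was passed upward by 2.12% and downward by 0.824% of 5945 genes in Csf1r cells, which had many more UMIs per gene.

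**Figure D2:**
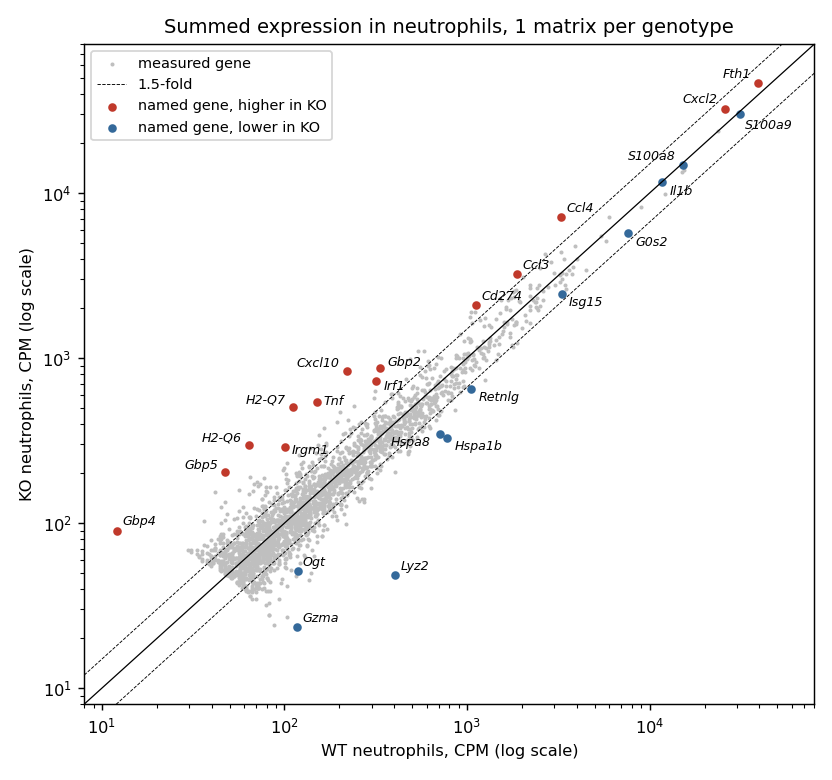
CPM of each of 2351 measured genes in KO neutrophils (vertical, log scale) against WT neutrophils (horizontal, log scale), with the equality line and dashed lines at 1.5-fold. Gbp4, Gbp5, H2-Q6, H2-Q7, Cxcl10 and Tnf lie above the upper dashed line, Lyz2, Gzma and Ogt below the lower one, and S100a8, S100a9 and Il1b on the equality line.

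Guanylate-binding proteins (GBPs) and immunity-related GTPases (IRGs) were higher in KO neutrophils. These families are known as interferon-gamma-inducible GTPases that attack the vacuoles of intracellular microbes. Of 18 family members, 8 were measured, and 7 of these were at least 1.5-fold higher in KO and 0 lower, with a median log2 ratio of 1.23, against 7.7% of all measured genes called higher and a median of -0.07. The families were put together as whole families after their values had been seen, so that the count describes them and does not test them. Gbp2 (chromosome 3, 142620663 to 142638008) stood at 872 CPM in KO and 333 CPM in WT, a ratio of 2.62 (95% interval 2.30 to 2.99). Irgm1 (chromosome 11, 48865245 to 48871420) stood at 291 CPM in KO and 100.3 CPM in WT, Gbp5 at 203 CPM in KO and 47.4 CPM in WT, Igtp at 100.3 CPM in KO and 45.2 CPM in WT, and Gbp7 at 186 CPM in KO and 101 CPM in WT. Ifi47, another IRG, stood at 215 CPM in KO and 99.2 CPM in WT. Gbp4, with 104 UMIs in KO and 11 in WT, passed the low-count filter only through KO. Gbp5 and Igtp too would have missed the filter had both matrices held their WT level, and without these 3 genes 4 of 5 were at least 1.5-fold higher, with a median of 1.08, against 6.51% of all genes kept in the same way. Summed over all 18 members, the families stood at 2277 CPM in KO and 849.5 CPM in WT. Irgm2 was the measured member within 1.5-fold, at 62.3 CPM in KO and 49.6 CPM in WT.

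The 10 members below the filter were each rare. Gbp3 had 63 UMIs in KO and 16 in WT, Gbp8 61 in KO and 11 in WT, Gbp9 64 in KO and 18 in WT, and Gbp6 24 in KO and 2 in WT. Iigp1 had 48 UMIs in KO and 2 in WT, but 1 KO cell held 52.1% of them. Tgtp1 had 21 UMIs in KO and 2 in WT, Tgtp2 14 in KO and 2 in WT, and Gbp2b, Gbp10 and Gbp11 had at most 2 in either. By cells, 37.95% of KO neutrophils (95% interval 32.9 to 43.2) and 13.8% of WT neutrophils (10.3 to 17.9) had a Gbp2 UMI after thinning, and 56.5% of KO and 27.8% of WT without it. The thinned share in T cells, which also make some Gbp2, was 8.08% in KO and 6.66% in WT. In barcodes with 1 to 99 UMIs, which hold mostly free RNA, Gbp2 was at 241 CPM in KO and 126 CPM in WT, below the neutrophils of the same matrix. The same families were called in 11 of 14 measured members in Csf1r cells (median 0.72, background 2.12%), in 1 of 13 in T cells (median 0.24, background 0.556%) and in 0 of 11 in NK cells (median -0.13, background 0.606%); the difference between the cell classes was not tested. Without the cells that held macrophage, lymphocyte or NK RNA, 7 of 8 were again at least 1.5-fold higher in KO neutrophils, against 149 of all 1959 genes measured.

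The family of Ifit1 held 0 genes past the threshold, near the backgrounds of 7.7% higher and 6.93% lower. Proximal promoters are printed for Gbp2 and Irgm2, as carriers of the motif searched, and for Ifit1. Each is the 130 bases just before the RefSeq start site, 5′ to 3′ on the strand of the gene (RefSeq, GRCm38.p6, the assembly of mm10). Capitals mark, on either strand, a direct repeat of GAAA with any 2 bases between its copies, a motif like the interferon-stimulated response element.
Gbp2: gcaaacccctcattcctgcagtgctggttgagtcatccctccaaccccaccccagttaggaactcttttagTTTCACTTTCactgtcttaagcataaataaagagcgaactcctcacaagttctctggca
Irgm2: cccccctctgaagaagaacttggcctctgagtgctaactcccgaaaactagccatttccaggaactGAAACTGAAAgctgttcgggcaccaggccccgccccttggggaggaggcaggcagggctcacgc
Ifit1: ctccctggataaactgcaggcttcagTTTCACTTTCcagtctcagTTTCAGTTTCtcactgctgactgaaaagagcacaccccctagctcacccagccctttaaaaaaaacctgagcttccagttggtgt
These stretches are chr3:142620533-142620662 for Gbp2, chr11:58214847-58214976 for Irgm2 and chr19:34640759-34640888 for Ifit1, all on the plus strand. In the 250 bases before the start site, the GAAA repeat was found in 6 of the 7 measured GBP and IRG genes with a RefSeq window, in 5 of 8 measured IFIT, OAS and MX genes and in 2 of 13 measured MHC class I genes, against 3.46% of 27025 genes and 5.17% of the 1857 measured genes with a window. It was found in 12.7% of 157 genes at least 1.5-fold higher in KO and in 3.28% of 122 genes at least 1.5-fold lower. Among the IFIT, OAS and MX genes, the windows of Ifit1 and Ifit1bl2 overlap on opposite strands, and the same 2 repeats are counted for both. A match describes these letters only and does not show that a factor binds.

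The IFIT, OAS and MX families, antiviral genes known for their induction by type I interferon, lay around 0. Of 20 members 9 were measured, with 0 at least 1.5-fold higher (background 7.7%), 0 lower (background 6.93%) and a median log2 ratio of -0.15. With 9 genes, counts of 0 are near these backgrounds and are not read as a result about the families. These families too were put together after seeing the values. Ifit1 stood at 315 CPM in KO and 370 CPM in WT, Ifit3 at 271 CPM in KO and 270 CPM in WT, and Oasl2 at 342 CPM in KO and 380 CPM in WT. Ifit2 was nearest to the threshold, at 138 CPM in KO and 93.7 CPM in WT. Isg15, a ubiquitin-like protein, stood at 2451 CPM in KO and 3301 CPM in WT, and was found after thinning in 70.4% of KO and 71.0% of WT neutrophils (86.7% of KO and 82.6% of WT without thinning). On the broader list of interferon-stimulated genes, 7 of 25 measured were at least 1.5-fold higher (background 7.7%), 0 lower (background 6.93%), and the median was 0.02. Among these 7 were Gbp2, Gbp5, Ifi47, Xaf1, Zbp1 and Cxcl10. Gbp2, Gbp5 and Ifi47 are also counted in the GBP and IRG families above. Gbp5 would have missed the low-count filter at its WT level. Without it, 6 of 24 were higher, against 6.51% of all genes kept in the same way. Zbp1, a sensor of Z-form nucleic acid, stood at 342 CPM in KO and 154 CPM in WT.

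Genes of MHC class I presentation were higher in KO. Of 15 measured, all of those on the list, 10 were at least 1.5-fold higher (background 7.7%) and 0 lower (background 6.93%), with a median log2 ratio of 0.77. H2-K1, a classical class I heavy chain, stood at 1782 CPM in KO and 1042 CPM in WT, and B2m, the light chain, at 3107 CPM in KO and 2024 CPM in WT. The ratios of H2-K1 and B2m were close to 1.5-fold, at 1.71 and 1.54, and both lay within it under the stricter filter. Tap1, which moves peptides into the endoplasmic reticulum, stood at 154 CPM in KO and 80.4 CPM in WT, and the immunoproteasome subunits Psmb9 at 259 CPM in KO and 120 CPM in WT and Psmb8 at 286 CPM in KO and 138 CPM in WT. In KO, 1 cell held 16.1% of the Psmb9 UMIs and 17.5% of the Psmb8 UMIs. Nlrc5, the transactivator of class I genes, stood at 232 CPM in KO and 104 CPM in WT. H2-T23 was the member below 0 on the log2 scale, at 179 CPM in KO and 191 CPM in WT.

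H2-Q7 (chromosome 17, 35439140 to 35443773), a Qa-2 class Ib gene, had 581 UMIs in KO and 101 in WT, a ratio of 4.51 (95% interval 3.65 to 5.63). Its log2 ratio of 2.13 was 1.48 under the stricter cell filter. H2-Q6 had 343 UMIs in KO and 58 in WT; it is a near-identical copy, and reads shared by both copies may be split or dropped by the counting. After thinning, 35.7% of KO and 6.29% of WT neutrophils had an H2-Q7 UMI, and 58.2% of KO and 17.7% of WT without thinning. No cell type here lacks class I genes: the thinned shares were 31.0% in KO and 19.7% in WT Csf1r cells and 73.9% in KO and 60.4% in WT T cells. In barcodes of 1 to 99 UMIs, H2-Q7 was at 1225 CPM in KO and 737 CPM in WT, above the 502 CPM of KO and 111 CPM of WT neutrophils. The class I list was called higher in 2 of 15 genes in Csf1r cells (median 0.33, background 2.12%), in 2 of 15 in T cells (median 0.06, background 0.556%) and in 0 of 15 in NK cells (background 0.606%), with 1 lower there (background 1.78%). Beside these genes, the MHC class II genes among the dendritic cell markers also stood higher, with H2-Aa at 351 CPM in KO and 215 CPM in WT, but 1 KO cell held 32.0% and 1 WT cell 25.6% of their UMIs. Without the cells that held macrophage, lymphocyte or NK RNA, 11 of 15 class I genes were at least 1.5-fold higher, against 149 of all 1959 genes measured. Cells with monocyte or dendritic cell RNA were not left out by this choice.

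Irf1 (chromosome 11, 53770014 to 53778374), a transcription factor induced by interferon-gamma, stood at 727 CPM in KO and 318 CPM in WT, a ratio of 2.28 (95% interval 1.996 to 2.62). After thinning it was found in 41.6% of KO and 21.6% of WT neutrophils, and in 59.6% of KO and 35.9% of WT without thinning. T cells, which also make Irf1, had it in 31.3% of KO and 26.1% of WT cells after thinning. Csf1r cells had it in 40.8% of KO and 31.8% of WT cells, near the KO neutrophils and above the WT neutrophils. On the list of granulocyte and stress transcription factors, Irf1 was the gene above the threshold of 18 measured, a share near the background of 7.7%, while Klf2 (1230 CPM in KO, 1890 CPM in WT) and Max (79.5 CPM in KO, 126 CPM in WT) were below it (background 6.93%). Klf2 lay within 1.5-fold under 3 and Max under 4 of 12 alternatives. Cebpb, a factor of emergency granulopoiesis, stood at 8184 CPM in KO and 8964 CPM in WT.

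**Figure D3:**
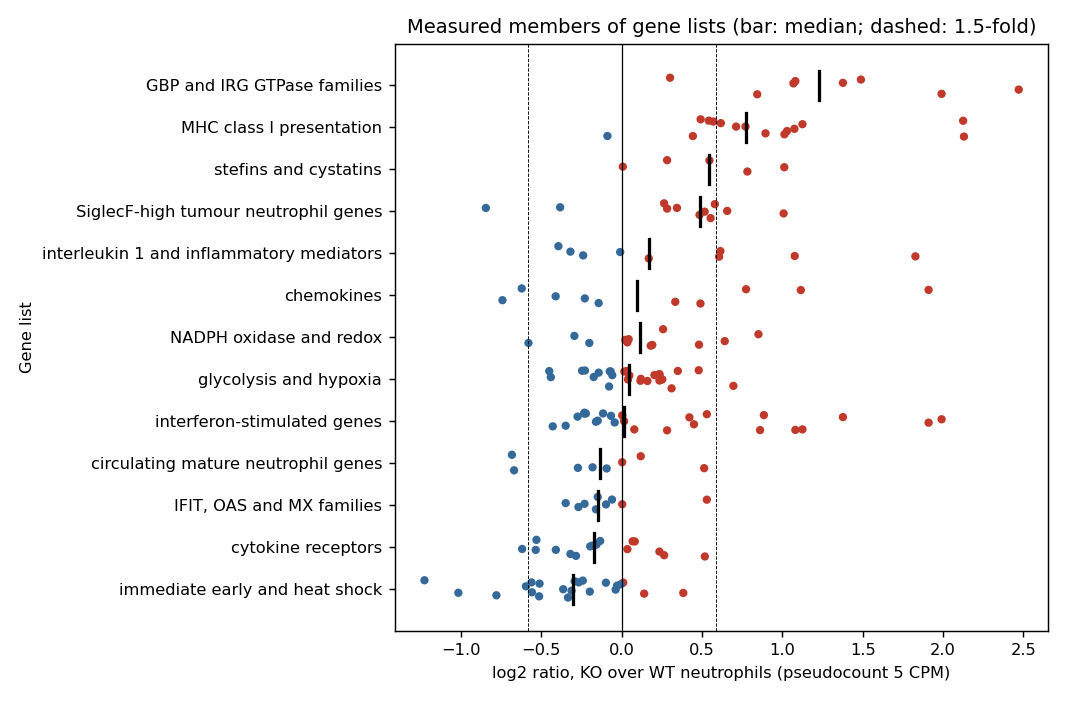
Log2 ratio KO over WT (horizontal, 5 CPM added to both) of each measured member of 13 gene lists in neutrophils, in red above 0 and blue below, with the median of each list as a black bar and 1.5-fold as dashed lines. The GBP and IRG families (median 1.23) and MHC class I genes (0.77) lie to the right, the IFIT, OAS and MX families (-0.15) around 0, and immediate early and heat shock genes (-0.30) to the left.

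Among chemokines, the CC chemokines Ccl3 and Ccl4 were higher in KO. Of 10 measured, 3 were at least 1.5-fold higher (background 7.7%), the third being Cxcl10, and 2 lower (background 6.93%). Ccl4 (chromosome 11, 83648624 to 83664683), which attracts monocytes and lymphocytes, stood at 7130 CPM in KO and 3290 CPM in WT, a ratio of 2.17 (95% interval 2.08 to 2.26). It was found in 65.4% of KO and 38.02% of WT neutrophils after thinning and in 72.6% of KO and 47.0% of WT without thinning. The thinned share of Ccl4 was 17.2% in KO and 16.0% in WT T cells, and 34.35% in KO and 31.4% in WT Csf1r cells. Ccl3, which overlaps Ccl4 in the RefSeq annotation and binds CCR1, stood at 3213 CPM in KO and 1876 CPM in WT and was found in 61.2% of KO and 42.2% of WT neutrophils after thinning (72.9% of KO and 52.4% of WT without). Under the stricter cell filter the log2 ratio of Ccl3 was 0.58, just within 1.5-fold. In Csf1r cells the log2 ratios were -0.08 for Ccl4 and -0.22 for Ccl3. Cxcl2, a ligand of CXCR2, stood at 32429 CPM in KO and 25729 CPM in WT, Cxcl3 at 2620 CPM in KO and 3484 CPM in WT, and Ccl6, below the threshold, at 1161 CPM in KO and 1789 CPM in WT. The other gene called lower, Ccl5, had 112 UMIs in KO and 150 in WT neutrophils, of which 1 KO cell held 24.1% and 1 WT cell 43.3%, and its log2 ratio was -0.74, against 1.04 without Scrublet doublets.

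Cxcl10 (chromosome 5, 92346638 to 92348889), a ligand of CXCR3 on T and NK cells, stood at 838 CPM in KO and 219 CPM in WT, a ratio of 3.82 (95% interval 3.28 to 4.47). Its thinned share, 16.1% of KO and 8.68% of WT neutrophils (26.3% of KO and 16.2% of WT without thinning), was under the 20.2% of KO and 19.8% of WT T cells, so that no difference is read from these shares. Cxcl10 was at 868 CPM in KO and 804 CPM in WT in barcodes of 1 to 99 UMIs, so that WT neutrophils lay below and KO neutrophils near the free RNA of their matrix; the part of free RNA in the CPM of Cxcl10 was not tested. Cxcl9 had 76 UMIs in KO and 15 in WT and was not measured by the filter.

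Of the interleukin 1 and inflammatory mediators, 9 were measured, with 4 at least 1.5-fold higher in KO (background 7.7%), 0 lower (background 6.93%) and a median of 0.17. Tnf (chromosome 17, 35199367 to 35202007), the tumour necrosis factor gene, stood at 545 CPM in KO and 150 CPM in WT, a ratio of 3.64 (95% interval 3.02 to 4.41), and was found in 25.5% of KO and 10.2% of WT neutrophils after thinning (44.3% of KO and 17.7% of WT without), against 6.77% of KO and 5.03% of WT T cells. Il1a stood at 514 CPM in KO and 241 CPM in WT. The receptor antagonist Il1rn, at 1630 CPM in KO and 1069 CPM in WT, and Casp4, a caspase that senses cytosolic lipopolysaccharide, at 316 CPM in KO and 205 CPM in WT, lay just past the threshold, and within it under 1 (Il1rn) and 2 (Casp4) of 12 alternatives. Il1b, the secreted interleukin 1 beta, stood at 11675 CPM in KO and 11749 CPM in WT, a ratio of 0.994 (95% interval 0.969 to 1.02). The log2 ratio of Tnf was 0.46 in Csf1r cells, 0.48 in T cells and -0.60 in NK cells. After thinning, Tnf was found in 13.35% of KO and 10.5% of WT Csf1r cells.

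On the list of suppressive neutrophil genes, 2 of 10 measured were at least 1.5-fold higher (background 7.7%) and 0 lower (background 6.93%). Cd274 (chromosome 19, 29362107 to 29388095), which encodes PD-L1, the ligand of the T cell receptor PD-1, stood at 2094 CPM in KO and 1114 CPM in WT, a ratio of 1.88 (95% interval 1.75 to 2.03). It was found in 67.6% of KO and 52.1% of WT neutrophils after thinning and in 87.5% of KO and 67.1% of WT without thinning. The thinned share in T cells was 24.6% in KO and 20.2% in WT, and in Csf1r cells 41.7% in KO and 29.7% in WT. In Csf1r cells, 4 of 14 measured genes of this list were at least 1.5-fold higher (background 2.12%) and 0 lower (background 0.824%). The difference between the cell classes was not tested. Acod1, which makes itaconate, stood at 4251 CPM in KO and 2681 CPM in WT. It was found in 86.4% of KO and 74.0% of WT neutrophils after thinning (94.7% of KO and 85.3% of WT without). The thinned share of Acod1 was 2.17% in KO and 1.86% in WT T cells, and 13.2% in KO and 7.0% in WT Csf1r cells. Arg2 stood at 1002 CPM in KO and 869 CPM in WT, Ptgs2, the inducible cyclooxygenase, at 1528 CPM in KO and 2009 CPM in WT, and Wfdc17 at 3439 CPM in KO and 3637 CPM in WT. Arg1 had 20 UMIs in KO and 19 in WT.

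**Figure D4:**
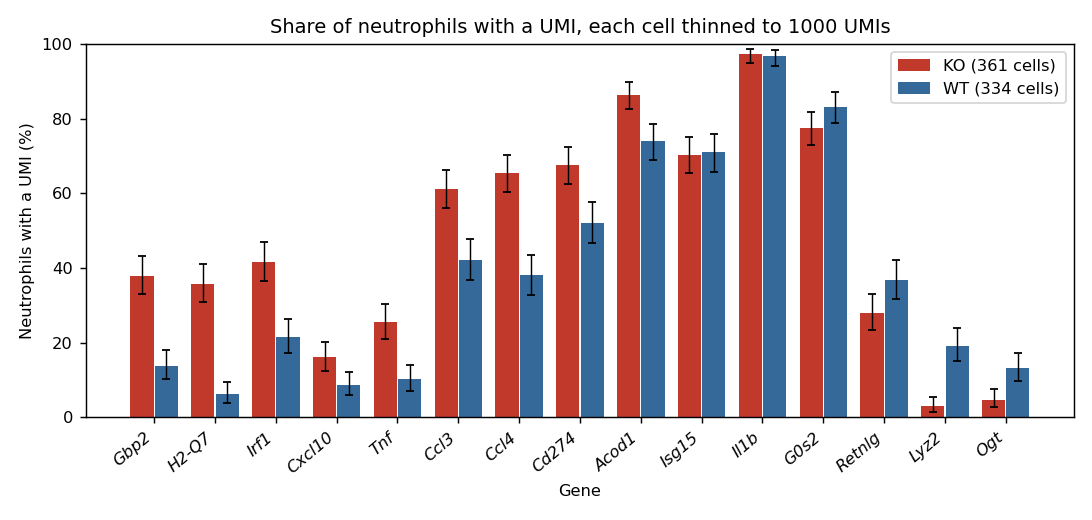
Share of neutrophils with at least 1 UMI of each gene after every cell was thinned to 1000 UMIs, in 361 KO cells (red) and 334 WT cells (blue). Bars start at 0 and error bars are exact binomial 95% intervals for counting error; Gbp2 (37.95% in KO, 13.8% in WT), H2-Q7, Irf1 and Ccl4 show the taller KO bars, Isg15 and Il1b bars of like height, and Lyz2 and Ogt taller WT bars.

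Redox, lipid and stefin genes each held 1 or 2 members above the threshold. Of 12 redox genes measured, Prdx5, a peroxiredoxin (1913 CPM in KO, 1058 CPM in WT), and Sod2, the mitochondrial superoxide dismutase (610 CPM in KO, 389 CPM in WT), were at least 1.5-fold higher (background 7.7%) and 0 were lower (background 6.93%), Sod2 being within 1.5-fold under 2 of 12 alternatives, while the oxidase subunits Ncf1 (239 CPM in KO, 231 CPM in WT) and Cybb (62.3 CPM in KO, 60.6 CPM in WT) were not. Hmox1, heme oxygenase, stood at 629 CPM in KO and 313 CPM in WT, the single gene called among 11 iron and lipid genes, a share near the background of 7.7%. Of 5 stefins and cystatins, which inhibit cysteine proteases, Stfa2l1 (1096 CPM in KO, 541 CPM in WT) and Cstdc4 (1907 CPM in KO, 1106 CPM in WT) were called higher (background 7.7%); these belong to a cluster of similar copies, so that reads may be split between them. Spp1, which encodes osteopontin, stood at 982 CPM in KO and 486 CPM in WT. It was one of 2 genes higher (background 7.7%), with Lgals3, and 1 lower (background 6.93%), Xbp1 (163 CPM in KO, 298 CPM in WT), among 11 measured genes of the SiglecF-high tumour neutrophil list, and Siglecf itself had 3 UMIs in KO and 15 in WT. S100a4, a calcium-binding protein, stood at 172 CPM in KO and 73.8 CPM in WT, but 1 KO cell held 24.1% and 1 WT cell 32.8% of its UMIs, and its log2 ratio of 1.17 was 0.58 without cells that held RNA of other types.

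Of the immediate early and heat shock genes, 4 chaperones were lower in KO. All 22 genes of the list were measured, with 0 at least 1.5-fold higher (background 7.7%), 4 lower (background 6.93%) and a median of -0.30. Under the stricter cell filter 1 was higher and 9 were lower, against 142 higher and 109 lower of all 1468 genes measured. Hspa1b stood at 329 CPM in KO and 778 CPM in WT, Hspa8 at 348 CPM in KO and 710 CPM in WT, Hsp90aa1 at 732 CPM in KO and 1261 CPM in WT, and Dnaja1, close to the threshold and within it under 7 of 12 alternatives, at 455 CPM in KO and 690 CPM in WT. Fos, a subunit of AP-1, stood at 1615 CPM in KO and 1647 CPM in WT, and Junb at 5489 CPM in KO and 5451 CPM in WT. Reads of Hspa1b and its near-identical copy Hspa1a (555 CPM in KO, 820 CPM in WT) may be split. The same list was lower in 7 of 22 genes in Csf1r cells (median -0.48, background 0.824%), in 6 of 22 in T cells (median -0.21, background 0.874%) and in 9 of 22 in NK cells (median -0.44, background 1.78%). In barcodes of 1 to 99 UMIs, Hspa1b was at 1567 CPM in KO and 3006 CPM in WT, above the neutrophils of the same matrix and lower in KO as well; the part of free RNA in the neutrophil values was not tested. Each genotype is its own matrix, so that matrix and genotype cannot be told apart.

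Of the genes of circulating mature neutrophils, 0 of 8 measured were higher (background 7.7%) and 2 lower (background 6.93%), with a median of -0.14. Retnlg (chromosome 16, 48872608 to 48874498) stood at 654 CPM in KO and 1052 CPM in WT, a ratio of 0.621 (95% interval 0.564 to 0.684). Its log2 ratio lay within 1.5-fold with each cell weighted equally (-0.58), with cells thinned to 1000 UMIs (-0.40) and without the cells that held RNA of other types (-0.56). Pglyrp1, a peptidoglycan-binding granule protein, stood at 186 CPM in KO and 299 CPM in WT. Cxcr2, the receptor for Cxcl2, stood at 345 CPM in KO and 418 CPM in WT. Among 16 cytokine receptors, Il10ra (154 CPM in KO, 239 CPM in WT) was the gene called lower and 0 were higher; 1 of 16 is a share near the background of 6.93%, and Il10ra lay within 1.5-fold under 4 of 12 alternatives. Of 27 glycolysis and hypoxia genes measured, Ankrd37 was called higher and 0 lower, below the backgrounds of 7.7% and 6.93%, and Ankrd37 lay within 1.5-fold under 3 of 12 alternatives. Ankrd37 would have missed the low-count filter had both matrices held its WT level. Without it, 0 of 26 were higher and 0 lower, against 6.51% and 5.045% of all genes kept in the same way. Of 13 survival genes, Fas, a death receptor (346 CPM in KO, 210 CPM in WT), and Cflar, an inhibitor of caspase 8 (263 CPM in KO, 159 CPM in WT), were called higher (background 7.7%) and 0 lower (background 6.93%), while Mcl1, which neutrophils depend on for survival, stood at 3216 CPM in KO and 3489 CPM in WT.

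The largest other ratios were in genes of low count. Ly6a, an interferon-inducible surface protein, stood at 155 CPM in KO and 41.9 CPM in WT. Cdc42ep3, Camk2d and Ralgds had log2 ratios of 1.49, 1.41 and 1.38, each with at most 221 UMIs in KO. Downward, after Lyz2 came Gzma, a granzyme of T and NK cells, with 27 UMIs in KO and 106 in WT, of which 1 WT cell held 33.0%; it was found in 2.49% of KO and 5.09% of WT neutrophils after thinning (6.37% of KO and 12.3% of WT without), against 2.37% of KO and 2.59% of WT Csf1r cells, which should lack it. In barcodes of 1 to 99 UMIs Gzma was at 1035 CPM in KO and 1212 CPM in WT, above the neutrophils of the same matrix, and its log2 ratio of -2.10 was -0.99 without Scrublet doublets; the part of free RNA in its UMIs was not tested. Plekhn1, Samd11 and Plekhf2 followed at log2 ratios of -1.77, -1.67 and -1.50, with 28 to 52 UMIs in KO and 80 to 124 in WT. Ly6a, Lyz2, Gzma, Plekhn1, Samd11 and Plekhf2 would have missed the low-count filter at the lower of their levels, so that the filter favoured their calls. Of all 2351 measured genes, 2121 would have passed it at that level, with 138 higher and 107 lower.

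To see whether the differences ran through the whole range of neutrophils, the cells of each matrix were ordered by their UMIs of 10 circulating mature genes after thinning to 1000 UMIs and cut into 3 parts, called low, middle and high. These parts are ranges and not cell types: 140 KO and 129 WT cells lay within 1 UMI of the lower cut, and 120 KO and 88 WT cells within 1 UMI of the upper one. The middle part began at 3 UMIs in both matrices, and the high part at 5 UMIs in KO and 6 in WT. Parts of the same name are therefore not matched ranges between the genotypes. The ordering genes themselves are a description, with Retnlg at 118, 512 and 1461 CPM in the low, middle and high KO parts and 133, 734 and 2428 CPM in the WT parts. The summed GBP and IRG genes stood at 1997, 2379 and 2524 CPM in KO and at 672, 1147 and 737 CPM in WT, so that every KO part lay above every WT part. MHC class I genes summed to 9661, 9772 and 11294 CPM in KO and 5908, 6788 and 5968 CPM in WT. Irf1 stood at 721, 840 and 623 CPM in KO and 232, 440 and 288 CPM in WT. IFIT, OAS and MX genes summed to 1222, 1808 and 2162 CPM in KO and 1441, 2095 and 2004 CPM in WT. They were higher in the high part than in the low part in both genotypes. In the low part the intervals of KO (1121 to 1329.5) and WT (1313 to 1578) overlapped narrowly. The same held in the middle part (1671 to 1953 in KO, 1934 to 2265 in WT). In the high part the intervals of KO (2012 to 2321) and WT (1843 to 2175) overlapped.

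Chemokines ran the other way along this order, with 51769, 51042 and 40308 CPM in KO and 45097, 35943 and 29133 CPM in WT. Ccl3 showed the same direction, with 3668, 3501 and 2359 CPM in KO and 2859, 1644 and 1007 CPM in WT, and so did Tnf, with 703, 523 and 370 CPM in KO and 198, 123 and 123 CPM in WT. Ccl4 stood at 8189, 7211 and 5736 CPM in KO and 3464, 3422 and 2954 CPM in WT. Cd274 did not run one way, with 1830, 2348 and 2168 CPM in KO and 1047, 1334 and 958 CPM in WT. Ogt stood at 56.5, 56.0 and 39.3 CPM in KO and 68.2, 143 and 147 CPM in WT, on 14 to 43 UMIs in each part, and in the low part the intervals of KO (36.6 to 83.4) and WT (42.7 to 103) overlapped.

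**Figure D5:**
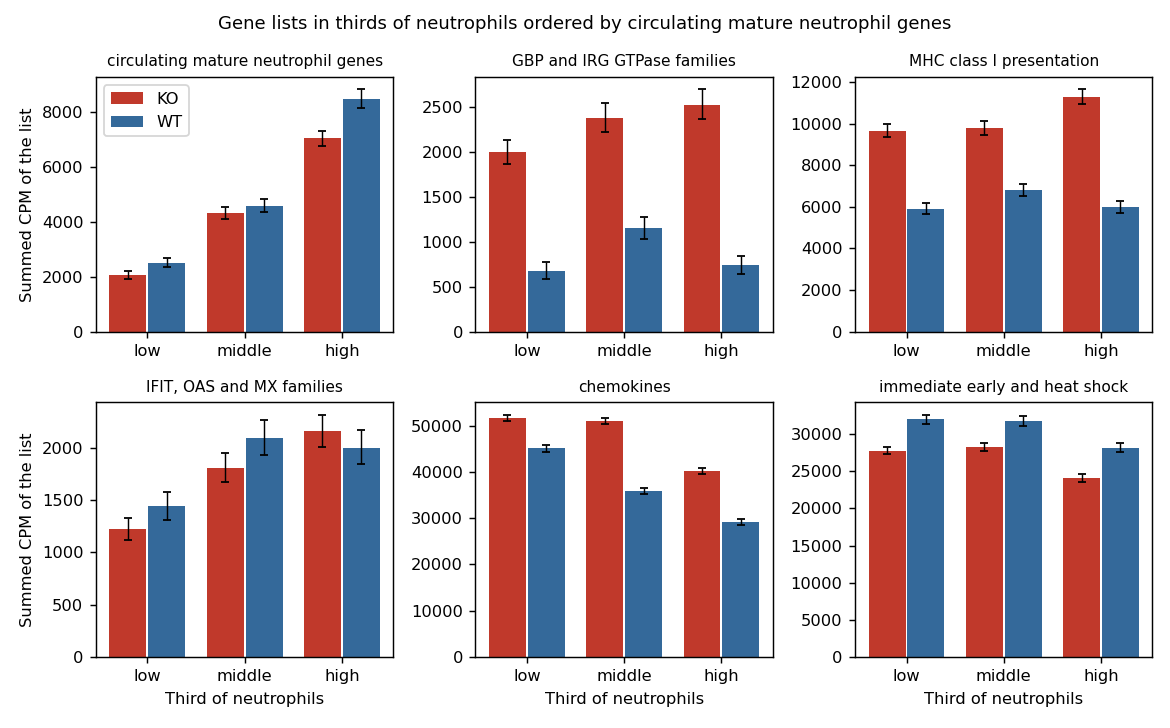
Summed CPM of 6 gene lists in neutrophils of the low, middle and high part of the order by circulating mature genes, in KO (red) and WT (blue), with exact Poisson 95% intervals for counting error. The first panel is the ordering list itself, and the parts were cut in each matrix on its own. GBP and IRG and MHC class I bars are taller in KO in all 3 parts, and chemokine bars fall toward the high part in both genotypes. IFIT, OAS and MX bars are lower in KO in the low and middle parts and higher in KO in the high part, with overlapping intervals in each.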

How the data were processed

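The authors deposited UMI counts per gene and barcode, 1 matrix per genotype with all barcodes included, made with Cell Ranger 8.0.1 per the file headers. The submitters' processing notes name mm10. Aligner options and annotation were not given in the sources used here. Other deposited RNA, EGR2, histone and ATAC files were not used here.

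Raw counts were gated as described, summed over the cells of a class and matrix, and scaled to CPM with pandas 2.3.3, numpy 2.4.6 and scipy 1.17.1 under Python 3.11.15. Ratios of sums have exact 95% intervals. Log2 ratios have 5 CPM added. Measured genes had at least 100 UMIs over both sums and 20 CPM in 1; the threshold was 1.5-fold. Each genotype has a single matrix, hence no replicate, no test and no p-value. Csf1r cells had at least 1 Csf1r UMI, at most 1 CD3 UMI and at most 1 UMI of Ncr1 and Klrb1c. T cells had at least 2 CD3 UMIs and no Csf1r UMI, with no limit on Ncr1 and Klrb1c. NK cells had at least 2 UMIs of Ncr1 and Klrb1c, at most 1 CD3 UMI and no Csf1r UMI. All of these had under 20 UMIs of S100a8 plus S100a9. Cells were thinned to 1000 UMIs by drawing UMIs at random without replacement. Doublets were called with Scrublet in scanpy 1.11.5. The calculation was tested on simulated data.

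Named genes are Ogt, Lyz2, Egr2, the 12 largest ratios each way, the 20 genes of highest CPM, the 15 of highest ratio to Csf1r cells, and up to 4 members by ratio and 3 by CPM from each list; other list members are named to account for their list after their values were seen. The cells, lists and rules were chosen with earlier results of these data known. Some list members are not reported here by name. Gene positions and promoters come from RefSeq, GRCm38.p6. Alternatives were other cell filters and gates, doublets left out, other scalings, pseudocounts, low-count filters and thresholds.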

Additional observations from a re-analysis of the deposited data

Results flagged for a closer look

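Genes that were at least 1.5-fold lower in KO neutrophils and at least 1.5-fold higher in KO Csf1r cells were Ccl5 and AW112010. Ccl5, a CC chemokine of T and NK cells, had a log2 ratio KO over WT of -0.7416 in neutrophils and 0.9864 in Csf1r cells. It had 112 UMIs in KO and 150 in WT neutrophils, of which 1 KO cell held 24.1% and 1 WT cell 43.3%. With Scrublet doublets left out (4 KO and 6 WT neutrophils), the neutrophil log2 ratio of Ccl5 was 1.044, the direction of Csf1r cells. AW112010 had a log2 ratio of -0.7342 in neutrophils and 1.101 in Csf1r cells. The difference between neutrophils and Csf1r cells was not tested, since each class has 1 matrix per genotype.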

How the results depend on the processing

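No paired analysis was possible because each genotype has 1 matrix and its cells carry no sample number, and for the same reason no replicate could be left out. The KO over WT ratio of the neutrophil share stood at 1.434 under the stricter cell filter, against 1.094, and between 1.082 and 1.117 under the other 5 settings. Of 2351 measured genes, 181 were higher and 163 lower. These counts were 234 higher and 294 lower after thinning to 1000 UMIs, and 180 higher and 202 lower with each cell weighted equally. With a pseudocount of 20 CPM, 136 were higher and 103 lower. With no filter on low counts, 1370 of 14786 genes were higher and 1280 lower. With at least 300 UMIs per gene, 75 of 1055 were higher and 50 lower, and at 2-fold 43 were higher and 23 lower. Fewer genes tested or a higher threshold make the last 2 smaller by construction. More genes tested likewise make the counts without the filter larger, and a larger pseudocount draws every ratio toward 1. The cause of the changes with thinning and with equal weighting was not tested. Of 72 named genes past 1.5-fold, each under 12 alternatives, 3 of 864 values reversed, 80 lay within 1.5-fold, and 29 genes lay within it at least once. Ccl5 reversed to 1.044 with Scrublet doublets left out and to 0.64 without cells that held RNA of other types, and Mmp12 to 0.083 without the latter cells, an alternative added after seeing the data. The GBP and IRG count of 7 of 8 (181 of all 2351 measured genes) became 5 of 5 under the stricter cell filter (142 of 1468). It was 6 of 6 with S100a8 plus S100a9 at 50 or more UMIs (152 of 1966). With Csf1r at most 1 it was 9 of 10 (195 of 2744), and with at least 300 UMIs per gene 4 of 4 (75 of 1055). With no filter on low counts it was 14 of 18 (1370 of 14786), with members of few UMIs included. Differences between mice could not be measured.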
